A study of Drosophila melanogaster with 4 samples.

Results

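The cuticle protein genes described here are those whose symbols begin with *Cpr* and a digit, *Ccp84A*, *Lcp*, *Pcp*, *Acp65A* or *Twdl*, and they number 119 of the 13955 genes counted in single nuclei of the adult *Drosophila* abdomen. Genes entered by symbol alone, but the families were chosen with earlier results of these data known. Most *Cpr* genes encode secreted proteins with the Rebers and Riddiford consensus, a stretch that binds chitin, while the Tweedle (*Twdl*) proteins form a separate family of cuticle proteins. Epidermal cells secrete these proteins with chitin to build the exoskeleton, and the names larval (*Lcp*), pupal (*Pcp*) and adult (*Acp*) cuticle protein record the stage at which a protein or gene was first described. Cuticle genes of one stage are known to be switched on and off together around each moult, under the moulting hormone ecdysone.

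The study profiled nuclei of abdominal cuticles from adult males by snRNA-seq in droplets, where a captured transcript is tagged with a unique molecular identifier (UMI). The 2 control libraries (oenots>EGFP) came from w1118; UAS-2xEGFP/+; PromE-Gal4, tub-Gal80ts/+ males, and the other 2 (oenots>tsc1,tsc2) from males with UAS-Tsc1, UAS-Tsc2/+ in place of the EGFP transgene, Tsc1 and Tsc2 being inhibitors of TOR signaling. All 4 libraries pooled 40 abdomens each, freed of intestines and male reproductive organs. All flies carried the same driver, active in oenocytes (lipid-producing cells under the abdominal cuticle) and, as the study states, also in male accessory glands. They also carried the same temperature-sensitive Gal80, and were kept at 18 °C and moved to 29 °C for 4 days. Only the control nuclei carried deposited cluster numbers, 0 to 15. In its finer clustering the study named 0, 2, 4 and 8 adipose tissue, 1 and 6 oenocytes, and 3 and 5 muscle. It counts 15 clusters there against 16 deposited, so it is assumed that these numbers mean the same clusters. Flies were aged 3 to 5 days at 18 °C before the shift, as the general methods give for all experiments. The labels name standard food, whereas those methods move over-expression flies to a high sugar diet after the shift, so the diet of these flies is uncertain.

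The control libraries held 7213 and 8067 nuclei, and the tsc1,tsc2 libraries 7594 and 2267, with median totals of 372 to 468 UMIs per nucleus. Across the 4 libraries 279 barcodes occurred in more than 1 library, in 559 nuclei. Ambient RNA had been subtracted from the counts at a fixed fraction before deposit. The male tract markers stood far higher in control replicate 1 than in control replicate 2 in the small clusters 11, 12 and 14, and the values of those clusters are given by library.

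The families were unequally used. Of the 119 genes, 75 had at least 1 UMI, 27 had a UMI in every library and 44 had none. The *Cpr* genes took 98.65% of the 67994 UMIs, with 48 of 70 genes detected. The *Lcp* genes gave 545 UMIs from 9 of 15 genes, *Acp65Aa*, an adult cuticle protein gene, gave 222, the Tweedle genes 129 from 14 of 25, the *Ccp84A* genes 18 from 2 of 7, and *Pcp*, the pupal gene, 5. Nearly all UMIs of these families thus belonged to *Cpr* genes. *Pcp* lies inside *Gart* on the other strand. Strand use in the counting is not stated in the sources, and whether reads of such overlapping genes were kept apart was not tested.

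A pair of genes gave most of the signal. *Cpr65Au* had 31362 UMIs (46.12%), *Cpr49Ab* 25999 (38.24%) and *Cpr49Ae* 5049 (7.426%), together 91.79% of the total. The 14 genes with at least 100 UMIs held 98.94%, while 19 genes had 10 to 99 UMIs and 42 had 1 to 9. *Cpr65Au* had 9227 and 8398 UMIs in the control libraries and 6959 and 6778 in the tsc1,tsc2 libraries, *Cpr49Ab* had 5848 and 5845 against 7719 and 6587, and *Cpr49Ae* had 1096 and 1093 against 1388 and 1472. The 3 leading genes were therefore abundant in every library, and *Cpr65Au* had the most UMIs of them in each library except tsc1,tsc2 replicate 1. *Cpr51A* and *Cpr67Fb* were the least even of the abundant members, with 319, 33, 398 and 126 UMIs and with 185, 4, 315 and 35 UMIs, in the order control replicates 1 and 2 and tsc1,tsc2 replicates 1 and 2.

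The genes lie in runs, and most other members of the leading genes' runs had few UMIs or none. With a run defined as members less than 50 kb apart, 91 of the 119 genes were in runs of at least 2 members, with 46 members on 3L, 31 on 3R, 27 on 2R, 8 on X and 7 on 2L (Release 6 of the genome, coordinates from the Ensembl annotation). *Cpr65Au* (3L, 6131242 to 6132109, minus strand) belonged to a run of 18 genes at 6130386 to 6161589, of which 6 had a UMI and 4 had at least 100. The other 3 of these 4 were *Lcp65Ag3*, *Lcp65Ag2* and *Acp65Aa*. *Lcp65Ag3* and *Lcp65Ag2* flank *Cpr65Au* on the same strand at 252 and 880 bases, and they belong to a set of near-identical copies among which reads may be divided, so their own levels are uncertain. *Cpr49Ab* (2R, 12378440 to 12379396, plus strand) and *Cpr49Ae* (2R, 12402216 to 12405108, plus strand) were 2 of a run of 8 genes, the other 6 of which had few UMIs or none. Their nearest neighbours, *Cpr49Aa* and *Cpr49Af*, had 8 and 6. The 12 Tweedle genes on 3R at 26619118 to 26641054 gave 9 UMIs in all, from 4 genes.

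Among the 16 deposited clusters of the control, cluster 3 held most of the cuticle protein RNA. It had 29970 and 29100 CPM (the UMIs of the 119 genes per 1000000 UMIs of all genes in the same nuclei, control replicates 1 and 2) in 849 and 818 nuclei, and these nuclei gave 83.89% and 83.66% of each library's cuticle protein UMIs. The sources do not say which genes entered the clustering, and these may have been among them, so differences between clusters are described and not tested. Cluster 5, the other cluster named muscle, came next at 5980 and 7881 CPM. The adipose clusters ranged from 205.2 to 1087 CPM and the oenocyte clusters from 203.3 to 590.9 CPM, values of 2 libraries each, so that cluster 3 stood far above both tissues in both libraries.

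**Figure D1:**
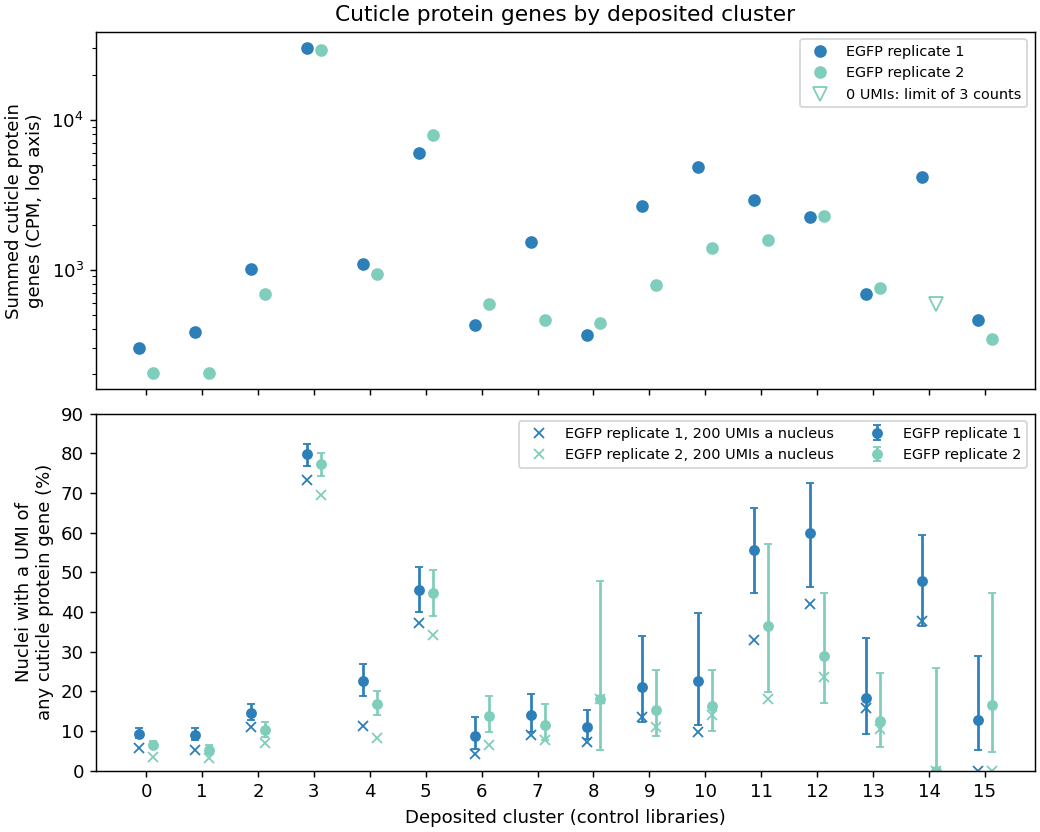
Summed CPM of the 119 cuticle protein genes (log axis) in each deposited cluster, with a point for each control library. Cluster 3 stands highest in both libraries at 29970 and 29100 CPM, cluster 5 follows at 5980 and 7881, and clusters 7, 9, 10 and 14 differ most between the libraries.

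In cluster 3, 79.74% (95% Wilson interval 76.91 to 82.31) and 77.38% (74.39 to 80.12) of the nuclei had a cuticle protein UMI, intervals that cover counting error only. With each nucleus thinned to 200 UMIs the shares were 73.14% and 69.44%. In cluster 5 they were 45.55% and 44.77% (thinned 37.33% and 34.30%), and in cluster 0, adipose nuclei in which most of these genes should be silent, 9.359% and 6.553% (thinned 5.606% and 3.416%). Median totals were 509.0 and 482.5 UMIs in cluster 3, 444.0 and 514.0 in cluster 5 and 382.0 and 409.0 in cluster 0, so the order of the clusters was the same before and after thinning.

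Within cluster 3 the cuticle protein RNA was concentrated in part of the nuclei. The median nucleus had 9 and 7 UMIs of these genes, the 90th percentile was 48.00 and 46.30, and the highest nucleus had 212 and 206. The 412 nuclei (48.53%) and 358 nuclei (43.77%) with at least 10 such UMIs gave 92.44% and 91.12% of the cluster's cuticle protein UMIs. Nuclei with 3 or more different members made up 38.04% and 32.15% and those with none 20.26% and 22.62%, while single nuclei reached 7 and 9 members. In cluster 5 the median was 0, and 29 nuclei (9.932%) and 47 nuclei (16.97%) had 10 or more. The members were thus detected together in the same nuclei: in cluster 3, *Cpr49Ab* was found in 82.50% and 80.14% of the nuclei with *Cpr65Au* and in 23.85% and 25.26% of those without (thinned 80.26% and 76.65% against 22.65% and 22.59%).

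The named members differed in how strictly they kept to cluster 3. *Cpr65Au* had 16336 and 15494 CPM there, with 88.51% and 87.58% of its UMIs in each library. *Cpr49Ab* had 10187 and 10255 CPM with 87.09% and 83.28% of its UMIs, and *Cpr49Ae* 2000 and 2096 CPM with 91.24% and 91.03%. All 3 genes code for chitin-binding *Cpr* proteins, and their 2 control libraries lay close to each other in cluster 3.

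Members with fewer UMIs shared this pattern. *Cpr67B* had 312.0 and 265.4 CPM in cluster 3, *Cpr60D* 296.0 and 276.0, *Cpr97Eb* 128.0 and 147.5, and *Lcp65Ag3*, a larval cuticle protein gene by name, 116.0 and 101.1. *Cpr76Bc* had 92.01 and 82.16 CPM, *Acp65Aa* 72.01 and 92.69, *Cpr62Bb* 78.01 and 50.56, and *Lcp65Ag2* 50.01 and 52.66. Each of these 8 genes had between 54.93% and 86.21% of a library's UMIs of that gene in cluster 3, a looser hold than that of *Cpr49Ae*. *Cpr76Bd*, *Cpr100A* and the Tweedle gene *Twdlbeta* had 15 and 18, 17 and 12, and 7 and 14 UMIs in cluster 3. Divided by the length of the gene's span, *Cpr65Au* reached 18821 and 17850 CPM per kb in cluster 3 and *Cpr49Ab* 10645 and 10715, against 691.4 and 724.5 for *Cpr49Ae*, 408.3 and 380.6 for *Cpr60D* and 192.1 and 167.4 for *Lcp65Ag3*. On this scale *Cpr65Au* exceeded *Cpr49Ab*, and *Cpr60D* exceeded *Cpr67B* (226.4 and 192.6), in both libraries. By CPM alone *Cpr67B* was above *Cpr60D* in replicate 1 and below it in replicate 2, so their order depended on the division. Divided by exonic length instead, *Cpr49Ae* stood at 1687 and 1767 CPM per kb.

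**Figure D2:**
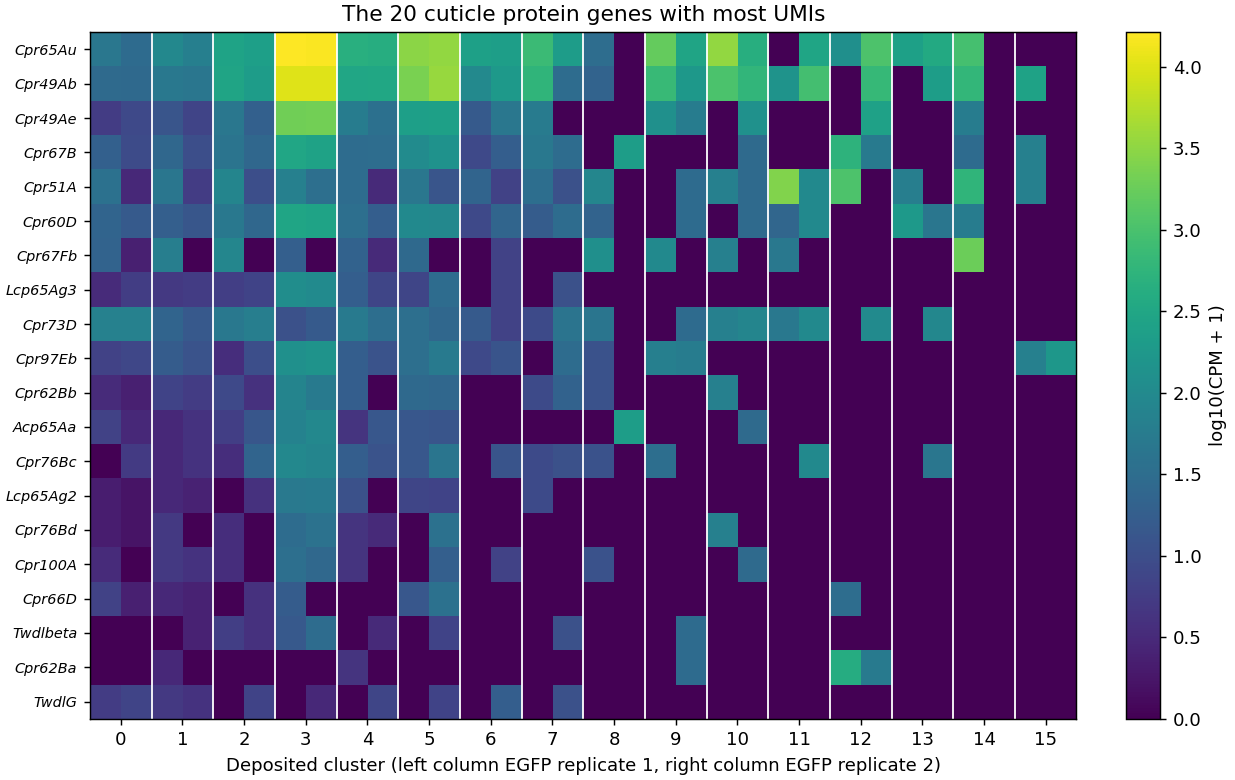
Levels of the named cuticle protein genes over the deposited clusters of the control, as colour on a log scale of CPM. Most genes are highest in cluster 3, while *Cpr51A*, *Cpr67Fb* and *Cpr62Ba* stand out in clusters 11, 14 and 12 and *Cpr73D* is spread over the adipose clusters.

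Cluster 3 was set against cluster 5 because both had been named muscle. Summed over the 119 genes, cluster 3 was 2.11 ± 0.31 higher on the log2(CPM + 1) scale (SD, n = 2 libraries), which is 4.30-fold. *Cpr49Ae* differed by 3.08 ± 0.01, *Cpr65Au* by 2.31 ± 0.18 and *Cpr49Ab* by 1.83 ± 0.47, so the 3 leading genes did not share a single ratio. *Acp65Aa* differed by 2.61 ± 0.34, *Cpr60D* by 1.59 ± 0.02, *Cpr97Eb* by 1.68 ± 0.35 and *Cpr67B* by 1.25 ± 0.44. *Lcp65Ag3* had 1 and 5 UMIs in cluster 5 and *Lcp65Ag2* 1 and 1, too few for a firm ratio. Of the 14 members with at least 100 UMIs, *Cpr73D* alone was lower in both libraries in cluster 3 (10.00 and 14.75 CPM) than in cluster 5 (32.93 and 24.06 CPM), on 5 and 7 UMIs against 5 and 4.

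Muscle RNA stood beside the cuticle protein RNA in cluster 3. The 14 muscle markers, all of them detected, summed to 28478 and 27663 CPM in cluster 3 and to 108567 and 124147 CPM in cluster 5. In cluster 3, 439 and 406 nuclei had UMIs of both a cuticle protein gene and a muscle marker, 238 and 227 of a cuticle protein gene only, 101 and 104 of a muscle marker only, and 71 and 81 of neither. In cluster 5 no nucleus had cuticle protein UMIs without muscle UMIs. Cuticle protein and muscle UMIs thus occurred both together and apart. A muscle UMI was found in 64.84% and 64.14% of the cluster 3 nuclei with a cuticle protein UMI and in 58.72% and 56.22% of those without (thinned 59.90% and 59.33% against 54.39% and 51.20%). The 309 and 308 cluster 3 nuclei without any muscle marker UMI had 31724 and 29885 CPM of cuticle protein genes, against 29089 and 28687 CPM in the rest, so the level was as high without muscle markers. Nuclei with at least 10 UMIs of both kinds made up 19.32% and 17.24% of cluster 3, and whether such nuclei are doublets was not tested. Their number rests on counts after ambient subtraction, in which 1 muscle UMI was seen in only 6 and 5 cluster 3 nuclei, against 65 and 73 nuclei with 2.

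**Figure D3:**
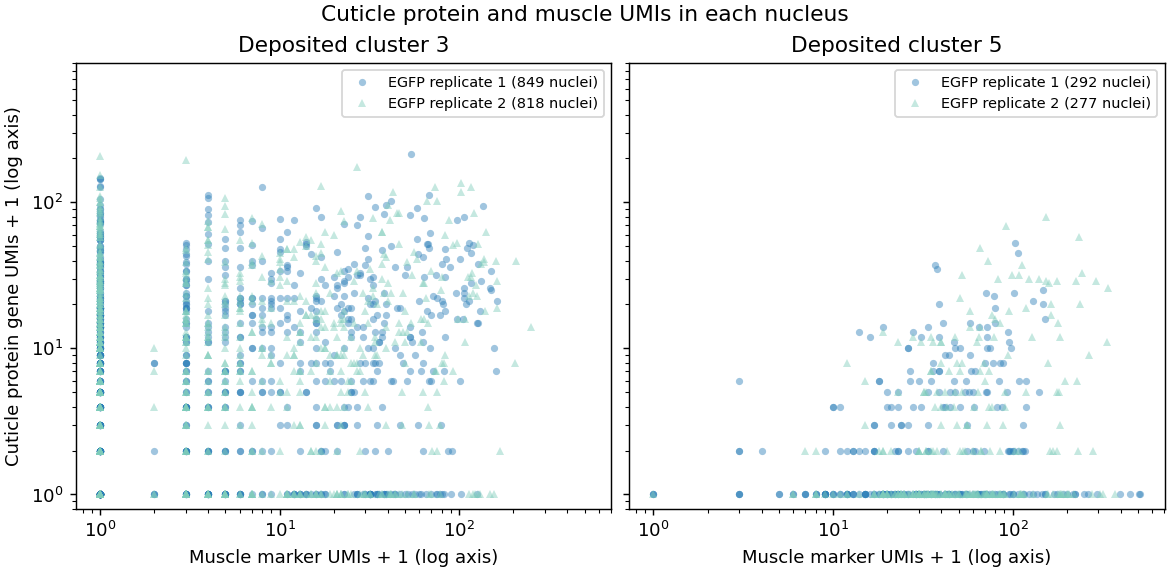
UMIs of cuticle protein genes against UMIs of the 14 muscle markers in single control nuclei of clusters 3 and 5, both axes logarithmic after adding 1. Cluster 3 nuclei spread along both axes and hold 238 and 227 nuclei with cuticle protein UMIs alone, while cluster 5 nuclei nearly all have muscle UMIs.

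Other genes of cuticle and epidermis were also measured. The 8 other epidermis markers summed to 972.1 and 1184 CPM in cluster 3 and to 309.5 and 427.1 in cluster 5. Among them *serp* and *verm*, chitin deacetylases, had 234.0 and 383.4 and 186.0 and 316.0 CPM in cluster 3, *grh*, a transcription factor of epidermal fate, 390.1 and 328.6, and *stw*, a laccase that hardens cuticle, 136.0 and 132.7. The chitin synthase gene *kkv* had 0 and 4.213 CPM, and the pigment gene *y* and the hair gene *sha* were at 0 UMIs in cluster 3 in both libraries. Of the 31 genes listed for chitin synthesis and assembly, 22 were higher in cluster 3 than in the other nuclei in both libraries, of the 18 measured of 19 for pigment and sclerotization 12, of the 18 of 20 for the apical matrix 4, and of the 17 of 18 for epidermal patterning and hormones 6. The share was 29.61% over all 12177 genes with a UMI, and 11 of the 14 muscle markers were likewise higher in cluster 3 than in the other nuclei, all 14 of them being lower than in cluster 5. The chitin genes with most UMIs were *Idgf4*, a chitinase-like factor (360.1 and 482.4 CPM in cluster 3, 26.34 and 48.13 in cluster 5), *Idgf6* (474.1 and 353.9 against 250.2 and 138.4) and *obst-E*, a chitin-binding protein gene (436.1 and 539.3 against 144.9 and 114.3).

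The pigment list was led by *Ddc*, dopa decarboxylase (286.0 and 389.7 CPM in cluster 3, 138.3 and 156.4 in cluster 5), *AANAT1*, an N-acetyltransferase (152.0 and 134.8 against 191.0 and 204.5), and *Hn*, phenylalanine hydroxylase (132.0 and 134.8 against 0 and 30.08). Only *AANAT1* of these 3 was lower in cluster 3 than in cluster 5. Of the apical matrix genes, the zona pellucida domain genes *pio* (392.1 and 450.8 against 164.6 and 234.6) and *qsm* (184.0 and 278.1 against 125.1 and 36.09) were higher in cluster 3 in both libraries and *tyn* (46.01 and 73.73 against 263.4 and 222.6) was lower. The patterning list was mixed, with 4 genes higher in cluster 3 than in cluster 5 in both libraries and 7 lower. Its genes with most UMIs were the nuclear receptor gene *ftz-f1* at 258.0 and 214.9 CPM against 941.7 and 878.3 and *Blimp-1*, an ecdysone-responsive repressor gene, at 90.01 and 94.79 against 191.0 and 306.8. Beside them *bab2*, an abdominal pigmentation regulator, had 34.00 and 84.26 against 85.61 and 24.06 and did not order the clusters.

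Outside all lists, the gene most like the summed members over the 32 sums of cluster and control library was *l(2)34Fc* (Pearson r = 0.7461 on log2(CPM + 1), a description over sums that share libraries and depth). It had 5807 and 4721 CPM in cluster 3, 1021 and 848.2 in cluster 5 and 95.59 and 41.12 in the other nuclei. The muscle gene *Argk*, arginine kinase (r = 0.7361), was higher in cluster 5 (4702 and 6930 CPM) than in cluster 3 (1976 and 2176), and the ribosomal protein genes *RpL4* (0.7312), *RpL11* (0.6888) and *sta* (0.6880) were also among the most alike. *Cpr65Au* and *Cpr49Ab* themselves stood at 0.6961 and 0.7013, below *l(2)34Fc*, *Argk* and *RpL4*.

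A few members were highest outside cluster 3. *Cpr51A* had 2621 CPM in cluster 11 of control replicate 1, from 109 UMIs, and 98.47 CPM, from 1 UMI, in control replicate 2. *Cpr67Fb* had 1869 CPM (65 UMIs) in cluster 14 of replicate 1, and the 11 nuclei of that cluster in replicate 2 had no cuticle protein UMI, which allows up to 25.88% of nuclei with one. *Cpr62Ba* had 407.5 CPM (13 UMIs) in cluster 12 of replicate 1 and 51.63 CPM (1 UMI) in replicate 2, and *Cpr67B* reached 532.9 CPM (17 UMIs) in cluster 12 of replicate 1 but 51.63 CPM (1 UMI) in replicate 2, where it was highest in cluster 3. These clusters carried the male tract markers (7 genes) in replicate 1 at 24887, 27147 and 163734 CPM in clusters 11, 12 and 14, against 1182, 1342 and 787.7 CPM in replicate 2, and the part of that RNA in the result was not tested. In cluster 12 the 8 markers of trachea and foregut or hindgut, other chitin-forming cells, summed to 721.0 and 154.9 CPM in replicates 1 and 2. They summed to 92.01 and 65.30 CPM in cluster 3, and the part of such cells was not tested either.

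The same genes recurred in the tsc1,tsc2 libraries. There, nuclei were given the deposited cluster of their nearest control nuclei, with the cuticle protein genes left out of the comparison. In nuclei assigned to cluster 11, *Cpr51A* had 2554 CPM in control replicate 1 and 2144 and 2072 CPM in tsc1,tsc2 replicates 1 and 2, against 65.34, 36.86 and 36.79 CPM in their other nuclei, and it was seen in 51.85%, 48.72% and 56.25% of the 81, 117 and 32 nuclei. *Cpr67Fb* had 1906, 2160 and 741.0 CPM in the 53, 116 and 16 nuclei assigned to cluster 14, against 41.49, 36.99 and 16.05 CPM elsewhere. *Cpr62Ba* had 368.6, 187.6 and 60.47 CPM in cluster 12 of these libraries, the last from 1 UMI. Control replicate 2 had no nuclei assigned to clusters 11 and 14 and 1 assigned to cluster 12. All of these libraries had male tract markers at 28797, 30332 and 45844 CPM in cluster 11 and at 183459, 252845 and 217797 CPM in cluster 14. In these 3 libraries the levels were thus higher in the named clusters than in the other nuclei, but many UMIs lay elsewhere. Cluster 11 held 109 of 319, 256 of 398 and 74 of 126 *Cpr51A* UMIs, and cluster 14 held 51 of 185, 171 of 315 and 12 of 35 *Cpr67Fb* UMIs, with 83 and 78 UMIs of these genes in the adipose nuclei of control replicate 1. *Cpr51A* overlaps *CG30197*, which runs the other way.

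*Cpr73D* had most of its UMIs in the adipose clusters. It had 78.74% and 79.88% of its control UMIs in clusters 0, 2, 4 and 8 and 3.937% and 4.142% in cluster 3, and it led cluster 0 with 162 of the 558 cuticle protein UMIs there (29.03%), at 71.33 and 69.08 CPM. Its level was not particular to these clusters: cluster 10 had 66.13 and 82.07 CPM, on only 1 and 3 UMIs. Cluster 3 had 10.00 and 14.75 CPM. Adipose clusters 4 and 8 were below cluster 0, at 50.65 and 32.78 CPM and at 41.72 and 0 CPM. The gene spans 18.59 kb, against 0.8680 kb for *Cpr65Au*. It overlaps *Obp73a*, an odorant-binding protein gene that runs the other way, and whether reads of both genes were kept apart was not tested. The adipose clusters held 50.97% and 56.99% of all UMIs of the control libraries. *TwdlG* had 66.67% and 63.64% of its 6 and 22 UMIs there, near those shares.

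The genotype comparison asked whether Tsc1 and Tsc2 expressed under the oenocyte driver went with other levels of these genes, in oenocytes and elsewhere. No cuticle protein gene passed edgeR's quasi-likelihood test with Benjamini-Hochberg adjustment (adjusted p under 0.05) in any of 6 fits on UMIs summed per library. In whole libraries 0 of 22 tested members were called (0% of 9546 genes), in nuclei assigned to cluster 3 0 of 14 (0.209% of 5742), in cluster 5 0 of 5 (0% of 1931), in oenocytes 0 of 7 (2.89% of 6361), in adipose nuclei 0 of 13 (0% of 8439), and in the test of whether the difference in cluster 3 departed from that in all other nuclei 0 of 20 (0.0246% of 8142). The whole-library fit recovered no known changes in simulated data and the oenocyte and adipose fits recovered fewer than those of clusters 3 and 5, so the 0 of the whole libraries says nothing about these genes, and the comparison with all other nuclei was not simulated. At an unadjusted p under 0.05 the members numbered 3, 3, 2, 1, 4 and 5, against 15.3%, 6.30%, 7.82%, 17.8%, 14.6% and 7.15% of all genes tested. DESeq2, run for the first 5 fits, called no member. Over all genes it called 374 of 9546, 21 of 5742, 4 of 1931, 422 of 6361 and 210 of 8439. Each genotype had 2 pools of flies, and nothing in the labels says whether they came from separate crosses, so p-values measure only the spread between these libraries.

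In cluster 3 nuclei the leading genes varied as much between the tsc1,tsc2 libraries as between genotypes. The summed members had 30428 and 31528 CPM in the control and 22371 and 42047 CPM in the tsc1,tsc2 libraries (means 30978 ± 777.7 and 32209 ± 13913, SD, n = 2), so the genotypes overlapped. *Cpr65Au* had 16562 and 16835 CPM against 9576 and 18799, a log2 fold change of -0.05 (SE 0.31, edgeR adjusted p = 0.994). *Cpr49Ab* had 10365 and 11083 CPM against 9945 and 17424 (0.53, SE 0.29, adjusted p = 0.857), and *Cpr49Ae* 2035 and 2280 against 1759 and 4068 (0.62, SE 0.41, adjusted p = 0.892). Without tsc1,tsc2 replicate 2 the last 2 fell to log2 fold changes of -0.049 and -0.23, so their direction rested on that library. *Cpr65Au* stood at -0.74 without that library and at 0.43 without tsc1,tsc2 replicate 1. Muscle markers in the same nuclei had 30941, 29774, 29173 and 33895 CPM.

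**Figure D4:**
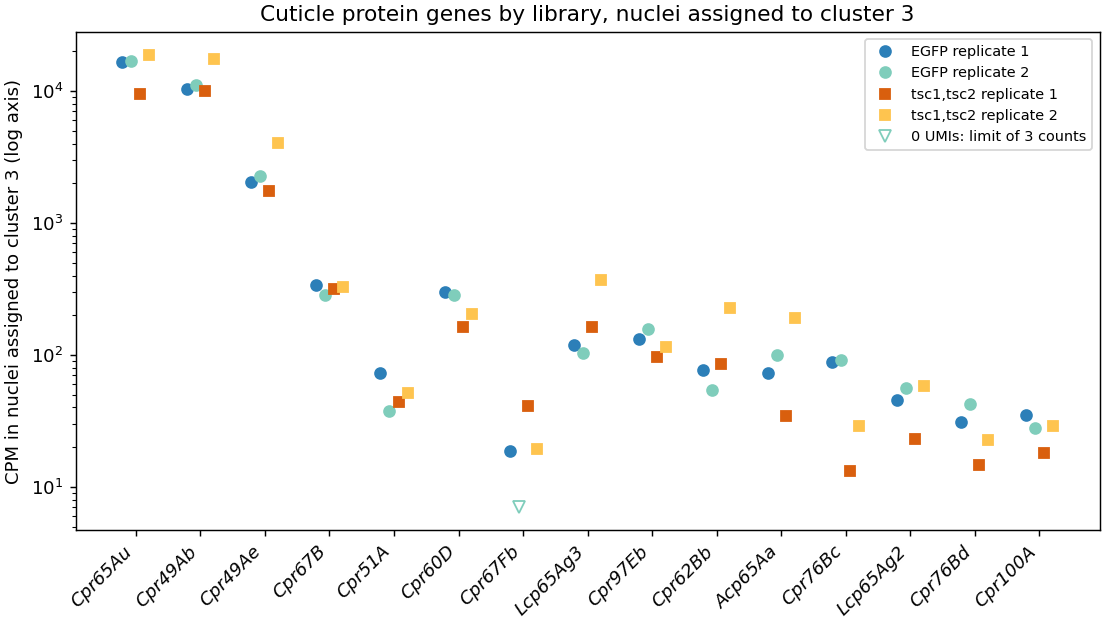
CPM (log axis) of the 15 cuticle protein genes with at least 40 UMIs in nuclei assigned to cluster 3, with a point for each library and an open triangle at the limit of 3 counts where a library had 0 UMIs. The tsc1,tsc2 libraries lie on both sides of the control for the leading genes and below both control libraries for *Cpr76Bc* and *Cpr60D*.

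Among the 14 members tested in cluster 3 the difference was largest for *Cpr76Bc*. It had 89.02 and 91.40 CPM in the control (43 and 39 UMIs) and 13.10 and 28.99 CPM in the tsc1,tsc2 libraries (8 and 9 UMIs), with a log2 fold change of -2.07 (SE 0.46, edgeR unadjusted p = 0.00123, adjusted p = 0.186). The log2 fold change was -1.37 without tsc1,tsc2 replicate 1 and -2.70 without replicate 2, where it passed the test. The libraries did not overlap, and the adjusted p ranged from 0.00186 to 0.9498 over 11 alternatives. In all, 2 of 14 members were higher in both tsc1,tsc2 libraries than in both control libraries (11.2% of all genes tested) and 4 were lower in both (26.3%). The higher ones were *Lcp65Ag3* (118.0 and 103.1 against 163.8 and 370.4 CPM, log2 fold change 1.44, SE 0.49, adjusted p = 0.658) and *Cpr62Bb* (76.60 and 53.91 against 85.17 and 228.7 CPM, log2 fold change 1.41). Without tsc1,tsc2 replicate 2 these log2 fold changes were 0.62 and 0.43. *Lcp65Ag2*, a near-identical copy of *Lcp65Ag3* with which reads may be divided, had -0.28 (SE 0.50) in the fit of all 4 libraries. The lower ones, beside *Cpr76Bc*, were *Cpr60D* (300.2 and 285.9 against 163.8 and 206.1 CPM), *Cpr97Eb* and *Cpr76Bd*, and none of them passed the test.

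Outside cluster 3, *Cpr49Ae* and *Cpr49Ab* were higher in both tsc1,tsc2 libraries in cluster 5, oenocytes and adipose nuclei, without passing the test. In adipose nuclei *Cpr49Ae* had 33.07 and 23.16 CPM in the control and 72.69 and 116.6 CPM in tsc1,tsc2 (log2 fold change 1.71, SE 0.42, edgeR adjusted p = 0.168), and *Cpr49Ab* 197.2 and 169.5 against 348.3 and 420.8 CPM (1.04, SE 0.33, adjusted p = 0.234). In deposited clusters 0, 2, 4 and 8, *Cpr49Ae* was found in only 2, 8, 7 and 0 nuclei of control replicate 1. In control replicate 2 it was found in 5, 2, 6 and 0. Its adipose levels were far below the 2035 and 2280 CPM of control cluster 3 nuclei, and whether they came from mixed droplets was not tested. In cluster 5, *Cpr49Ae* had 253.2 and 274.3 against 628.1 and 944.6 CPM (1.64, SE 0.41, adjusted p = 0.493). Both genes were called in cluster 5 when tsc1,tsc2 replicate 1 was left out (adjusted p = 0.00879 and 0.0116 by edgeR), with 1 tsc1,tsc2 library remaining. In the test of the difference itself, the log2 fold change of *Cpr49Ae* in cluster 3 minus that in all other nuclei was -1.32 (SE 0.36, edgeR adjusted p = 0.317). In adipose nuclei 7 of 13 members lay higher in both tsc1,tsc2 libraries (25.6% of genes tested) and 3 lower (18.5%), in oenocytes 2 of 7 higher (27.8%) and 0 lower (21.0%), in cluster 5 2 of 5 higher (16.8%) and 1 lower (21.9%), and in whole libraries 6 of 22 higher (26.5%) and 3 lower (19.1%). The members of adipose nuclei summed to 790.7, 556.6, 903.0 and 1235 CPM, with muscle markers at 1808, 1906, 2024 and 2137 CPM in the same nuclei.

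*Cpr73D*, with most of its control UMIs in adipose nuclei, was low in both tsc1,tsc2 libraries. It had 60.23 and 61.61 CPM in control adipose nuclei and 25.37 and 27.32 CPM in tsc1,tsc2 (log2 fold change -1.28, SE 0.29, edgeR adjusted p = 0.153), and 39.00 and 43.07 against 17.62 and 15.18 CPM in whole libraries (-1.37, SE 0.26, adjusted p = 0.165, between -1.45 and -1.31 over the alternatives). The groups did not overlap and the replicates were close, but the adjusted p missed the threshold in both fits.

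In cluster 3, 0 of 22 chitin genes, 0 of 11 pigment genes, 0 of 3 apical matrix genes and 0 of 8 patterning genes were called by edgeR (0, 1, 1 and 0 at an unadjusted p under 0.05, and none by DESeq2), with median log2 fold changes of -0.09, -0.21, 0.39 and 0.17, against -0.07 for the 14 cuticle protein genes and 0.00 for all genes tested. The pigment gene was *e*, at 89.02 and 89.06 CPM in the control and 8.189 and 25.77 in tsc1,tsc2 (log2 fold change -2.42, SE 0.52, edgeR adjusted p = 0.162). The apical matrix gene was *tyn*, at 39.33 and 46.87 against 81.89 and 122.4 CPM (1.38, SE 0.41, adjusted p = 0.508). Of all 5742 genes tested in cluster 3, edgeR called 12 and DESeq2 21, and 6.30% had an unadjusted edgeR p under 0.05.

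The libraries differed in the balance of the leading pair. This comparison was chosen after the values had been seen. Of the UMIs of *Cpr65Au* and *Cpr49Ab* in nuclei assigned to cluster 3, *Cpr65Au* took 61.51% (60.67 to 62.34) and 60.30% (59.42 to 61.18) in the control and 49.06% (48.16 to 49.95) and 51.90% (50.97 to 52.82) in the tsc1,tsc2 libraries. The means were 60.90% ± 0.852 and 50.48% ± 2.01 (SD, n = 2), and the exact permutation test (two-sided) gave p = 0.3333, the smallest that 2 against 2 libraries allow. The same order was found in cluster 5 (56.38% and 49.44% against 32.45% and 39.30%) and in oenocytes (66.67% and 56.90% against 48.28% and 53.05%), while adipose nuclei overlapped (58.09% and 52.98% against 44.39% and 54.35%). The oenocyte shares rested on 152 and 132 *Cpr65Au* UMIs in the control and 84 and 87 in tsc1,tsc2. In the control, *Cpr65Au* was found in only 12 and 11 nuclei of deposited cluster 1 and 5 and 7 of cluster 6. Wilson intervals take UMIs as independent, and whether this RNA came from cluster 3 was not tested. The cluster 3 shares were 63.11%, 63.23%, 47.90% and 53.31% in nuclei without muscle marker UMIs, and the medians over single nuclei with at least 10 UMIs of the pair were 62.96%, 60.87%, 48.32% and 50.00%. Thus both control libraries lay near 1.598 and 1.519 *Cpr65Au* UMIs per *Cpr49Ab* UMI and both tsc1,tsc2 libraries near 1 (0.9629 and 1.079). The genotypes were deposited as separate matrices, and genotype and any batch cannot be told apart.

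**Figure D5:**
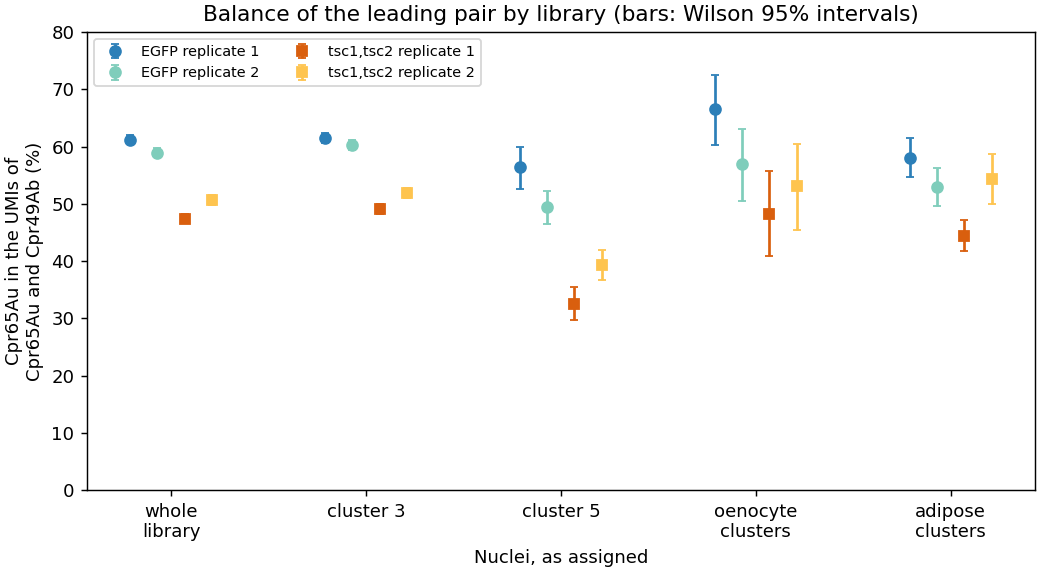
Share of *Cpr65Au* among the UMIs of *Cpr65Au* and *Cpr49Ab* in each library, by kind of nuclei, with 95% Wilson intervals that cover counting error only. In cluster 3 the control libraries lie at 61.51% and 60.30% and the tsc1,tsc2 libraries at 49.06% and 51.90%, while the adipose values of the genotypes overlap.

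The share of nuclei assigned to cluster 3 was 11.13% and 8.863% in the control and 12.22% and 16.14% in tsc1,tsc2, a difference of 4.184 percentage points that the exact permutation test could not call (p = 0.3333). A cuticle protein UMI was found in 79.70% and 79.44% of these nuclei in the control and in 77.69% and 83.88% in tsc1,tsc2 (thinned 72.48% and 71.75% against 69.61% and 75.68%), so the genotypes overlapped. In whole libraries the members made up 5485 and 4208 CPM in the control and 4511 and 10836 CPM in tsc1,tsc2, and the muscle markers moved alongside (10846, 9926, 9448 and 20331 CPM). Sums over a library alone do not separate more nuclei of a kind from a higher level in them. In tsc1,tsc2 replicate 2 the share of nuclei assigned to cluster 3 (16.14%) and the members' level in them (42047 CPM) were both the highest of the 4 libraries.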

How the data were processed

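The members and the gene lists were chosen with earlier results of these data known. The authors aligned reads with Cell Ranger 3.1.0 to a pre-mRNA reference of FlyBase Release 6, subtracted ambient RNA with SoupX, removed nuclei more than 2 SD from the mean log10 total and clustered the control nuclei with Seurat 3.1.2 and Harmony. The deposited matrices hold whole-number counts of UMIs per gene and nucleus, not scaled for depth, with 1449112 to 3972281 UMIs per library. Depth limits genes under 3 counts, and Wilson intervals and limits cover counting error only.

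Levels are CPM. Ratios used log2(CPM + 1). Nuclei of all libraries took the commonest deposited cluster of their 20 nearest control nuclei in 30 principal components of 2000 variable genes, members left out. This recovered 87.04% of deposited cluster 3, and 95.59% of the nuclei it put in cluster 3 were in it. Genotypes were compared with edgeR 4.0.16 (quasi-likelihood, TMM, filterByExpr, Benjamini-Hochberg over all genes tested, threshold 0.05, R 4.3.3), without a replicate block. SEs are the log2 fold change divided by the root of the F statistic. Methods were tested on simulated data. No doublet caller was run.

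Named were the 20 members with most UMIs, the leading member of each cluster with at least 10 UMIs there, members called, the 3 genes with most UMIs of each other list, and the 6 genes outside the lists most like the summed members, of which 1 is not reported here. Marker genes, *Pcp*, *Cpr49Aa*, *Cpr49Af*, the genotype values of *e* and *tyn* and the leading pair's ratio were added after values were seen. Alternatives were DESeq2 1.42.0, library totals, no filter, at least 10 counts, a replicate block, Leiden clusters (leidenalg 0.10.2), members kept, shared barcodes or muscle-marker nuclei left out, thinning and each library left out.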

Additional observations from a re-analysis of the deposited data

How the results depend on the processing

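With either control library left out, the summed log2 ratio of cluster 3 over cluster 5 was the other library's own value, 1.88 or 2.33 (2.11 in the comparison itself). This adds no check beyond those values. Thinning to 200 UMIs lowered the shares of nuclei with a UMI from 78.56% to 71.29% in cluster 3 and from 45.16% to 35.81% in cluster 5. The number of cuticle protein genes called moved from 0 as follows: cluster 3, 1 with a replicate block (*Cpr76Bc*), 2 without a filter (*Cpr76Bc* and *Lcp65Ae*) and 0 to 1 with each library left out (*Cpr76Bc* without tsc1,tsc2 replicate 2); cluster 5, 0 to 2 with each library left out; adipose nuclei, 1 without a filter and 1 with at least 10 counts (*Cpr49Ae*); whole libraries, 0 to 1 (*Cpr51A* without control replicate 1); cluster 3 against other nuclei, 0 to 2. In cluster 3 *Cpr49Ab* and *Cpr49Ae* lay between -0.049 and 0.96 and between -0.23 and 1.17 on the log2 scale with each library left out, the lowest without tsc1,tsc2 replicate 2, and *Cpr65Au* between -0.74 and 0.43. The cause was not tested.

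Over all genes the calls depended more on the fit. Whole libraries gave 0 calls, 55 with a block, 374 by DESeq2, 57 with at least 10 counts, 37 without a filter and 0 to 150 with each library left out. Cluster 3 gave 12 calls, 73 with a block, 21 by DESeq2, 29 with at least 10 counts, 90 without a filter, 0 without muscle-marker nuclei, 31 with library totals, 28 with the members kept and 1 to 38 with each library left out. Cluster 5 gave 0, 37 with a block, 4 by DESeq2, 44 without a filter and 7 to 82 with each left out, and oenocytes 184, 248 with a block, 422 by DESeq2, 424 with at least 10 counts, 689 without a filter and 0 to 328. Adipose nuclei gave 0, 65 with a block, 210 by DESeq2, 137 with at least 10 counts, 207 without a filter and 0 to 67, and the comparison of cluster 3 with other nuclei 2, and 3 to 120. The replicate numbers followed accession order and pair no libraries. Where a genotype kept 1 library, it is assumed to vary like the others. Library totals moved the median log2 fold change of all genes to -0.15 in cluster 3, 0.10 in oenocytes and 0.07 in whole libraries. The share of nuclei in cluster 3 differed by 2.222 to 6.147 points with each library left out and by 4.198 with the members kept, and the pair's share by -11.85 to -9.005, by -10.21 without shared barcodes and by -12.56 without muscle-marker nuclei. The alternatives that left out muscle-marker nuclei, those on the share of nuclei and on the pair, and the interaction with each library left out were chosen after seeing the data. Leiden clustering merged clusters 3 and 5, so it gave no cluster 5 fit. Its cluster 3 held 17.01% and 14.59% of the control nuclei and 26.46% and 31.05% of the tsc1,tsc2 nuclei. Of its control nuclei, 58.94% were in deposited cluster 3. In tsc1,tsc2 replicate 1 it held 2009 nuclei, against 928 and 265 assigned to clusters 3 and 5. The size of the difference in the share of nuclei thus depended on the assignment.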
